A study of Mus musculus with 8 samples.

Results

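The pyruvate dehydrogenase genes described here are 10 genes of the 22609 symbols counted in mouse pancreatic islets. These 10 genes were chosen by name, with earlier results of these data known. They are the kinases Pdk1, Pdk2, Pdk3 and Pdk4, the core enzyme subunits Pdha1, Pdhb, Dlat and Dld, and the phosphatases Pdp1 and Pdp2. All 10 were in the table and passed the filter on low counts, with at least 122 reads in every library. Islets came from male mice aged 8 to 9 weeks on a mixed background, in 4 groups of 2 libraries. All islets, mutant and control, were kept for 4 h after isolation in culture medium with 10% serum before RNA was taken. BKO mice carried MIP1-CreERT with floxed Sirt6 on both alleles, so that tamoxifen-activated Cre under an insulin promoter acts in beta cells, and were taken 2 weeks after tamoxifen. BKO control replicate 1 was MIP1-CreERT Sirt6 f/+ and BKO control replicate 2 was MIP1-CreERT Sirt6 +/+. EKO mice were Ngn3-Cre Sirt6 f/f, in which Cre acts from the endocrine progenitors onward and so reaches all islet endocrine cell types, and their controls were Ngn3-Cre Sirt6 +/+. Cre transgenes are therefore shared by mutants and controls within each model, and whether the BKO controls received tamoxifen is not given in the sources used here. SIRT6 is a chromatin-bound deacylase of the sirtuin family.

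The pyruvate dehydrogenase complex sits in the mitochondrial matrix and turns pyruvate into acetyl-CoA, the step that commits glucose carbon to the citric acid cycle. Its kinases phosphorylate the alpha subunit and switch the complex off, and its phosphatases remove the phosphate and switch it back on. Pdk4 is the family member known for strong induction by fasting, fatty acids and glucocorticoids, and Pdk1 is a classical target of the hypoxia factor HIF-1. In other mouse cells SIRT6 is known as a corepressor of HIF-1 target genes, Pdk1 among them. In beta cells, oxidation of pyruvate in mitochondria is a central step in coupling glucose to insulin release.

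Reads assigned to genes ranged from 37302246 to 44442165 per library in the BKO model and from 22330252 to 23673180 in those of the EKO model. The insulin genes Ins1 and Ins2, which define beta cells, took 13.75% to 25.06% of these reads, so the islet label held in every library. Sirt6 itself ranged from 12.6 to 24.4 CPM (counts as a share of library size, scaled by TMM factors) without separating mutants from controls, but a count over the whole gene also holds exons that are not floxed, so it is no check of the deletion. Apart from the BKO controls, whose genotypes differ, the labels leave unsaid whether the replicates were different animals. The p-values then describe the spread among these libraries alone, and that spread may be technical. With 2 libraries per group the common biological coefficient of variation was 0.431, which limits all tests below.

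None of the 10 genes passed the test in either model. The quasi-likelihood test of edgeR, after Benjamini-Hochberg adjustment over all genes, called 0 of 10 in BKO, where it called 0% of all 15041 genes tested, and 0 of 10 in EKO, where it called 0.00665%, a single gene (Ambp). At an unadjusted p under 0.05 the same test had 0 of 10 in BKO, against 0.977% of all genes, and 1 of 10, Pdk4, in EKO, against 3.7% of all genes. DESeq2 called 0 of the 10 in BKO and 1, Pdk4, in EKO. limma-voom called 0 in each model. Fitted log2 fold changes of the 10 had a median of -0.07 in BKO, against 0.01 over all genes tested, and of 0.10 in EKO, against -0.01 over all genes. They ran from -0.36 (Pdk3) to 0.81 (Pdk2) in BKO and from -1.76 (Pdk4) to 0.93 (Pdk2) in EKO. The genes at both ends of the EKO range, and those that varied most across the 8 libraries, were kinases.

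**Figure D1:**
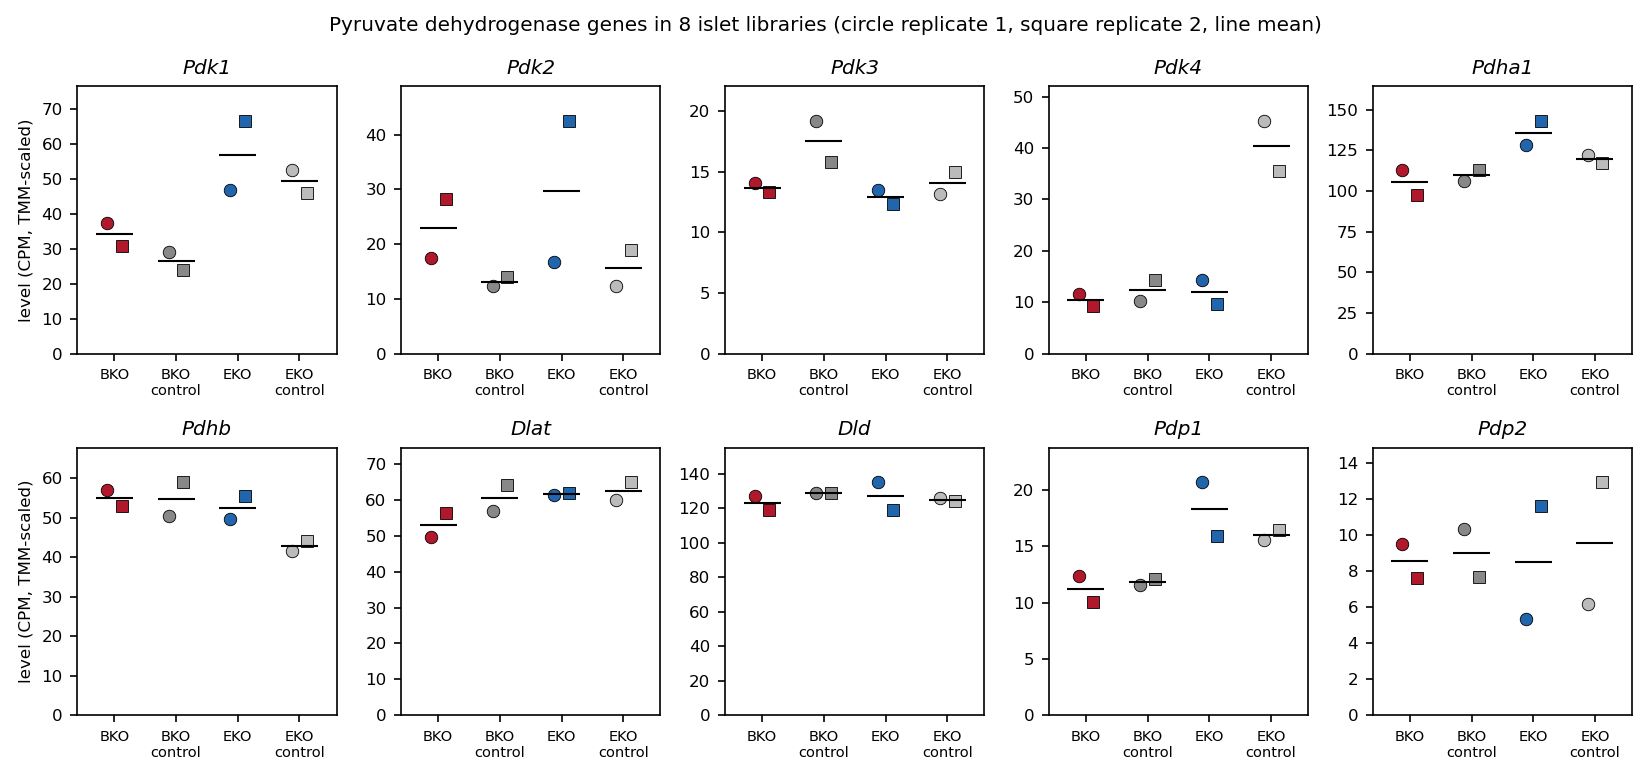
TMM-scaled CPM of the 10 genes in each library, by group, with replicate 1 as a circle, replicate 2 as a square and the group mean as a line. Pdk4 is at 45.3 and 35.6 CPM in the EKO controls and at 9.34 to 14.3 CPM in the 6 other libraries, while Dld spans 119 to 135 CPM over all 8.

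Pdk4 was the gene whose groups differed most. It was at 14.3 and 9.55 CPM in EKO, against 45.3 and 35.6 CPM in the EKO controls. It was at 11.5 and 9.34 CPM in BKO, against 10.3 and 14.3 CPM in the BKO controls. The EKO and EKO control libraries did not overlap, and the BKO and BKO control libraries did. The EKO libraries were at the levels of the 4 libraries of the BKO model, and the EKO controls lay above them. Model, Cre line and sequencing depth cannot be told apart in that comparison of Pdk4 across models, and tamoxifen is recorded for the BKO mice only. The mean was 11.9 ± 3.3 CPM in EKO and 40.4 ± 6.9 CPM in the EKO controls (SD, n = 2 each), a 3.39-fold lower fitted level.

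The log2 fold change of Pdk4 was -1.76 ± 0.30 (SE) in EKO, with an unadjusted p of 0.000875 that ranked 21 of 15041 genes and an adjusted p of 0.627 in edgeR's quasi-likelihood test. DESeq2 gave -1.79 with an adjusted p of 0.000197, and over all alternatives the adjusted p ran from 0.000197 to 1. The value therefore passed the 0.05 threshold under DESeq2 and missed it under edgeR and limma-voom. A log2 fold change as low or lower was found in 2.09% of all genes in EKO. In BKO the log2 fold change was -0.24 ± 0.29 (edgeR, adjusted p = 1). The difference between the effects (EKO minus BKO) was -1.52 ± 0.42, with an unadjusted p of 0.00964 and an adjusted p of 1 in edgeR, where 1.01% of all genes had an unadjusted p under 0.05 and 0% an adjusted one. The other 9 genes had an unadjusted p above 0.05 for this difference.

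The standing of the EKO controls was measured against all other libraries. The lower EKO control was 2.48 times the highest of the 6 other libraries for Pdk4. Both EKO controls lay above all 6 others for 2.48% of all genes, and by a factor of at least 2 for 6 genes, or 0.0399%, which were Dok7, Fgf1, Nxph1, Pdk4, Kcnh5 and Edaradd. Pdk4 had the highest mean level of these 6, at 18.8 CPM. For the 9 other pyruvate dehydrogenase genes the same ratio was at most 0.935 (Dlat). Because the EKO controls are 2 libraries of one model, a high level in them and a low level in EKO are the same measurement seen from either side.

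**Figure D2:**
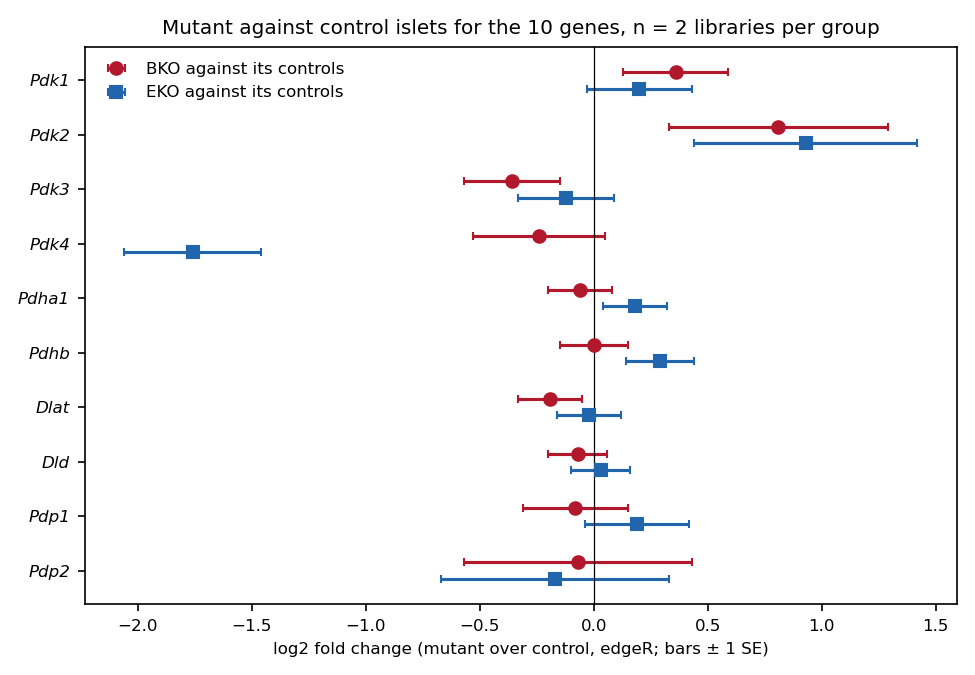
Log2 fold change of each gene in BKO and in EKO, mutant over control, from edgeR with bars of 1 SE (n = 2 libraries per group). Pdk4 in EKO, at -1.76, lies farthest from 0, and the core subunits lie between -0.19 and 0.29.

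Promoter windows of Pdk4 and Pdk2 are shown because these kinases spread most over the libraries, 4.85-fold for Pdk4 and 3.46-fold for Pdk2 from the lowest to the highest. The sequences are RefSeq's on build GRCm38.p6, 250 bases before to 50 after the gene's start, both on the minus strand and written along the gene. Capitals mark the hypoxia core GCGTG, its variant spelled ACGTG, and the box known as CCAAT. Each was read on either strand, so the box on the opposite strand appears as ATTGG.
Pdk4, chr6:5496229-5496528: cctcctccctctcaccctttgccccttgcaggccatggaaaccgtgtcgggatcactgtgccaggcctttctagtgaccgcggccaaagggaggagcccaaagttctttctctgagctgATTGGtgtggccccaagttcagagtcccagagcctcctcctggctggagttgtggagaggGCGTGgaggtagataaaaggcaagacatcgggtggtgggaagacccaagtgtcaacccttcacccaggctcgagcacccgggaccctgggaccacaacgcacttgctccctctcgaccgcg
Pdk2, chr11:95041322-95041621: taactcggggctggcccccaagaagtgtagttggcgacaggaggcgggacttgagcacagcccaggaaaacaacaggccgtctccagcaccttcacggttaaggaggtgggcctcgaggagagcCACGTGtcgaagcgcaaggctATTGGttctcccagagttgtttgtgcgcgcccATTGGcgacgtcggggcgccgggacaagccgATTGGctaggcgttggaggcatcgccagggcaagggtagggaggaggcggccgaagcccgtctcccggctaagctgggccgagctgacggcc

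The letters of these windows differ. The Pdk4 window held 12 CpG pairs and a GC content of 60.7%, with a single GCGTG starting 71 bases before the start and a single CCAAT, on the opposite strand, starting 131 bases before it. The Pdk2 window held 25 CpG pairs and a GC content of 64.7%, with the E-box palindrome CACGTG, which holds the hypoxia variant on either strand, 126 bases before the start and 3 copies of CCAAT on the opposite strand. Over all 32851 promoter windows of the same length, the hypoxia core was found in 32.4%, its variant in 19.6%, the E-box in 7.15% and the CCAAT box in 37.4%. The hypoxia letters are those read by HIF-1, and the CCAAT box is read by NF-Y. The forkhead letters read by FoxO factors, GTAAACA, were found in 3.65% of windows and in 0 of the 11 windows of the 9 matched genes. The single site read by PPAR and other nuclear receptors, AGGTCA, was found in 16.3% of windows and also in 0 of the 11. The cAMP response letters TGACG, found in 20.8% of windows, were in the Pdk2 window, 43 bases after the start, and not in that of Pdk4. Each motif was searched on both strands, and a match or its absence describes these letters only. Another window of Pdk2, at a start closer to the gene's end, held 0 matches of the motifs searched, and Pdp1 had no window.

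Markers of alpha cells moved with Pdk4. The 8 alpha cell markers summed to 22400 and 9210 CPM in EKO, against 28100 and 37800 CPM in the EKO controls, and to 16600 and 17200 CPM in BKO, against 13600 and 21000 CPM in the BKO controls, and none was at 0 in any library. The glucagon gene Gcg made up most of that sum, at 22100 and 8890 CPM in EKO, against 27800 and 37000 CPM in the EKO controls. All 8 had a negative log2 fold change in EKO, with a median of -1.02. Of the 8, 6 had EKO libraries below both EKO controls, against 9.57% of all genes. By edgeR's adjusted p 0 of the 8 were called, and 2 had an unadjusted p under 0.05, against 3.7% of all genes.

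For 5 of the 8 alpha markers both EKO controls lay above all 6 other libraries, as for Pdk4 and for 2.48% of all genes. The ratio of the lower EKO control to the highest other library was 1.26 for Gcg, 1.67 for Irx1, 1.53 for Irx2 and 1.82 for Pou3f4, each below the 2.48 of Pdk4. Islet RNA was measured in bulk, so fewer cells of a type and less RNA per cell cannot be told apart. The part of alpha cell content in the Pdk4 result was not tested. Acinar markers, which define the exocrine tissue around islets, were also lower in EKO, and they were lower in BKO too, where Pdk4 overlapped. They summed to 2190 and 278 CPM in EKO, against 8090 and 625 CPM in the EKO controls. All 13 tested had a negative log2 fold change in EKO, with a median of -1.89, but 1 of 13 had EKO libraries below both EKO controls, against 9.57% of all genes. In BKO the median was -2.02. There 12 of 13 had BKO libraries below both BKO controls, against 13.8% of all genes, and 1 had them above. The Pdk4 log2 fold change in BKO was -0.24 ± 0.29. The library with the highest acinar sum, EKO control replicate 1, had the highest Pdk4, and those with the lowest sums, BKO replicate 2 (185 CPM) and EKO replicate 2, had the lowest Pdk4. EKO control replicate 2, at 625 CPM, had a lower acinar sum than both BKO controls (887 and 728 CPM) and a higher Pdk4. With the acinar level as a covariate, the Pdk4 log2 fold change was -1.53 in EKO and 0.06 in BKO. Because the acinar level itself differed between BKO and its controls, that fit cannot separate acinar level from genotype in BKO. The part of acinar content in the Pdk4 result was not tested in either model.

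Genes with a profile like that of Pdk4 were sought over the 8 libraries, by the root mean square difference of log2 CPM after each gene was centred on its own mean. Of 15040 other genes the closest were Hrasls (0.32), Pou3f4 (0.344), 1700086L19Rik (0.353), Mr1 (0.375) and Fam46d (0.38), in log2 units. Pou3f4, a POU-domain transcription factor, is itself in the alpha marker list. It was at 0.7 and 0.421 CPM in EKO, against 1.28 and 1.72 CPM in the EKO controls, with 0.285 to 0.481 CPM in the 4 libraries of the BKO model. These levels rest on 9 to 37 reads per library. 1700086L19Rik was the most abundant of the 5, at 36 and 22.9 CPM in EKO, against 54.9 and 69.1 CPM in the EKO controls. Mr1, which encodes an antigen-presenting molecule related to MHC class I, was at 4.38 and 2.72 CPM in EKO, against 9.3 and 10 CPM in the EKO controls. Hrasls and Fam46d stayed at or below 1.25 CPM in all 8 libraries. No other pyruvate dehydrogenase gene came near: the closest to Pdk4 was Pdp1, at 0.73, and for each of the 9 other genes Pdk4 was the farthest of the 10.

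**Figure D3:**
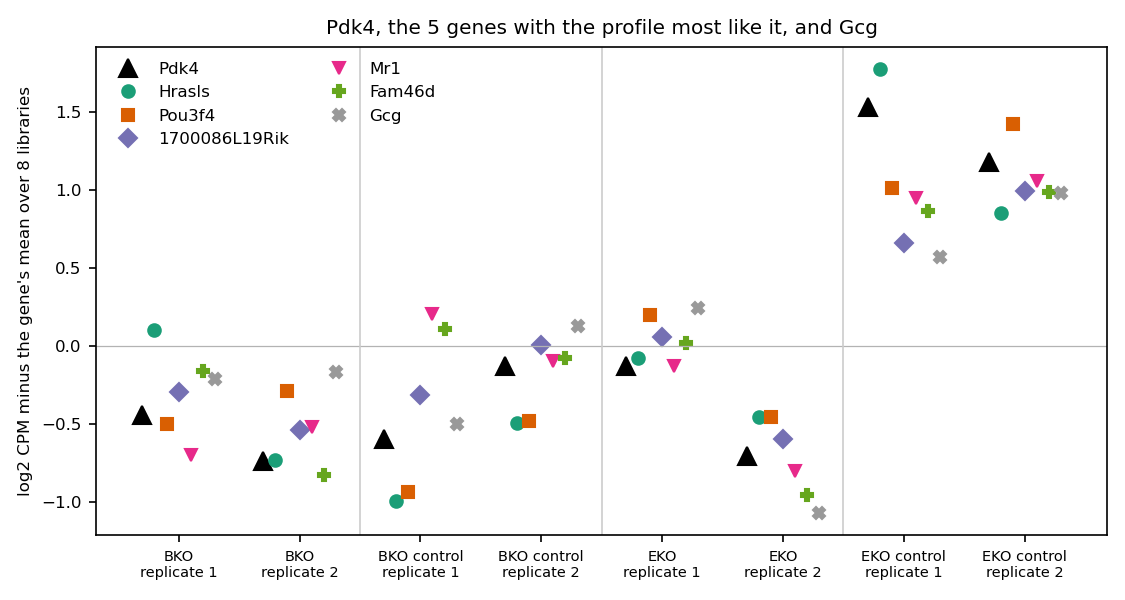
Log2 CPM minus each gene's mean over the 8 libraries, for Pdk4, the 5 genes with the most similar profile and Gcg, one symbol per gene and library. All 7 genes lie highest in the 2 EKO controls, and Pdk4 lies below its own mean in the 6 other libraries. The 5 similar genes were picked by likeness to Pdk4 over these same libraries, so their likeness was fixed by that choice.

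Pdk2, the most widely expressed kinase of the family, ran the other way. Its level was 16.8 and 42.5 CPM in EKO, against 12.3 and 18.9 CPM in the EKO controls. The level was 17.4 and 28.3 CPM in BKO, against 12.3 and 13.9 CPM in the BKO controls. The BKO libraries lay above their controls, whereas EKO replicate 1 lay below EKO control replicate 2, and replicate 2 was the higher library in all 4 groups. The log2 fold change was 0.81 ± 0.48 in BKO and 0.93 ± 0.49 in EKO (edgeR, adjusted p = 1 for each). Averaged over the models it was 0.87 ± 0.34, with an unadjusted p of 0.0421 and an adjusted p of 1 in edgeR, where 4.21% of all genes had an unadjusted p under 0.05 and 0.00665% an adjusted one. Pdk2 and Pdk4 were the 2 of 10 with an unadjusted p under 0.05 in that average, and Pdk4 was at -1.0 ± 0.21 (edgeR, adjusted p = 0.683; DESeq2, -1.02, adjusted p = 0.00817).

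The Pdk2 difference changed when single libraries were left out and when the acinar level entered the fit. Without EKO replicate 2 the EKO log2 fold change was 0.11, and without EKO replicate 1 it was 1.45, with 0.61 and 1.28 without EKO control replicate 1 and EKO control replicate 2. Without BKO replicate 2 the BKO value was 0.41. Acinar markers summed to 354 and 185 CPM in BKO, against 887 and 728 CPM in the BKO controls, and the libraries with the highest Pdk2, replicate 2 of BKO and of EKO, had the lowest acinar sums, 185 and 278 CPM, and the highest beta cell sums, 287000 and 307000 CPM. Defining acinar genes were at 0 for 1 or 2 of 15 in 4 libraries. EKO replicate 1, with an acinar sum of 2190 CPM, had more Pdk2 (16.8 CPM) than either BKO control (12.3 and 13.9 CPM). When the acinar level entered the fit, the Pdk2 log2 fold change was 0.11 in BKO and 0.29 in EKO. Because both BKO libraries had lower acinar sums than both BKO controls, that fit cannot separate acinar level from genotype in BKO. The part of acinar content in the Pdk2 result was not tested.

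Pdk1 was higher in both BKO libraries than in their controls, at 37.3 and 30.9 CPM in BKO, against 29.2 and 23.8 CPM in the BKO controls, a log2 fold change of 0.36 ± 0.23. In EKO it was at 46.8 and 66.6 CPM, against 52.5 and 46.0 CPM in the EKO controls, and the groups overlapped (0.20 ± 0.23). The adjusted p was 1 in each model in edgeR's quasi-likelihood test. All 4 libraries of the EKO model lay above all 4 of the BKO model. In that contrast model, Cre line and sequencing depth cannot be told apart, and tamoxifen is recorded for the BKO mice only. The share of all genes that separate the models in this way was not counted, so the separation is not shown to be particular to Pdk1. Pdk3, an X-linked kinase, was at 14.1 and 13.3 CPM in BKO, against 19.2 and 15.8 CPM in the BKO controls, a log2 fold change of -0.36 ± 0.21 without overlap. In EKO it was at 13.5 and 12.3 CPM, against 13.2 and 15 CPM in the EKO controls (-0.12 ± 0.21), with overlap and an adjusted p of 1 in edgeR in each model.

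Counting groups that did not overlap, 2 of the 10 genes were higher in BKO (Pdk1, Pdk2), against 16.3% of all genes, and 3 were lower (Pdk3, Dlat, Dld), against 13.8%. In EKO 2 were higher (Pdha1, Pdhb), against 12.5%, and 1 was lower (Pdk4), against 9.57%. No gene of the 10 was apart in the same direction in both models, where 4.47% of all genes were higher in both and 2.6% lower in both.

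The kinases differed in which of them supplied most reads. Pdk4 took 15.6% (95% exact binomial interval 14.1 to 17.3) and 7.3% (6.36 to 8.32) of the reads of the 4 kinases in EKO, against 36.8% (35 to 38.5) and 30.8% (29 to 32.7) in the EKO controls. In BKO it took 14.3% and 11.4%, against 14.6% and 21.1% in the BKO controls. The intervals cover counting error only, and the EKO and EKO control intervals were far apart. Pdk2 took 18.4% and 32.4% in EKO, against 9.95% and 16.4% in the EKO controls. In the other model it took 21.7% and 34.6% in BKO, against 17.3% and 20.5% in the BKO controls. In each model the Pdk2 share was higher in both mutant libraries than in both controls, but in EKO its CPM overlapped, and the share there also depends on the Pdk4 reads it is divided by. The Pdk3 share was lower in both BKO libraries (17.5% and 16.2%) than in the BKO controls (27% and 23.4%). Pdk1 held the largest share of the 4 in every library, from 35.1% to 51.2%.

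The log2 ratio of Pdk4 to Pdk2, a quantity within each library, was -0.23 and -2.15 in EKO, against 1.88 and 0.91 in the EKO controls. It was -0.60 and -1.59 in BKO, against -0.25 and 0.04 in the BKO controls. In each model the ratio was lower in both mutant libraries than in both controls, and only in the EKO controls was it clearly above 0. Pdk4 and Pdk2 were the ends of the EKO range, so their ratio there restates those levels. The share of gene pairs that separate in this way was not counted. The 4 kinases together summed to 91.4 and 131 CPM in EKO, against 123 and 115 CPM in the EKO controls, which overlapped. The sum was 80.3 and 81.8 CPM in BKO, against 71 and 67.8 CPM in the BKO controls.

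Per length, the order of the kinases depended on the group. Levels were divided by the exon length of each gene in GENCODE M21 on GRCm38, a later annotation than the one behind the counts, so they are approximate. Pdk4 was the lowest of the 4 in all 6 libraries outside the EKO controls, at 2.68 to 4.1 CPM per kb. It was the highest of the 4 in both EKO controls, at 13.0 and 10.2 CPM per kb. The median over the 8 libraries was 8.03 CPM per kb for Pdk1, 7.61 for Pdk2, 6.52 for Pdk3 and 3.7 for Pdk4. Pdk1, Pdk2 and Pdk3 overlapped in their ranges over libraries (4.59 to 12.8, 5.48 to 18.9 and 5.82 to 9.08 CPM per kb), so the order among them is not resolved by these libraries.

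**Figure D4:**
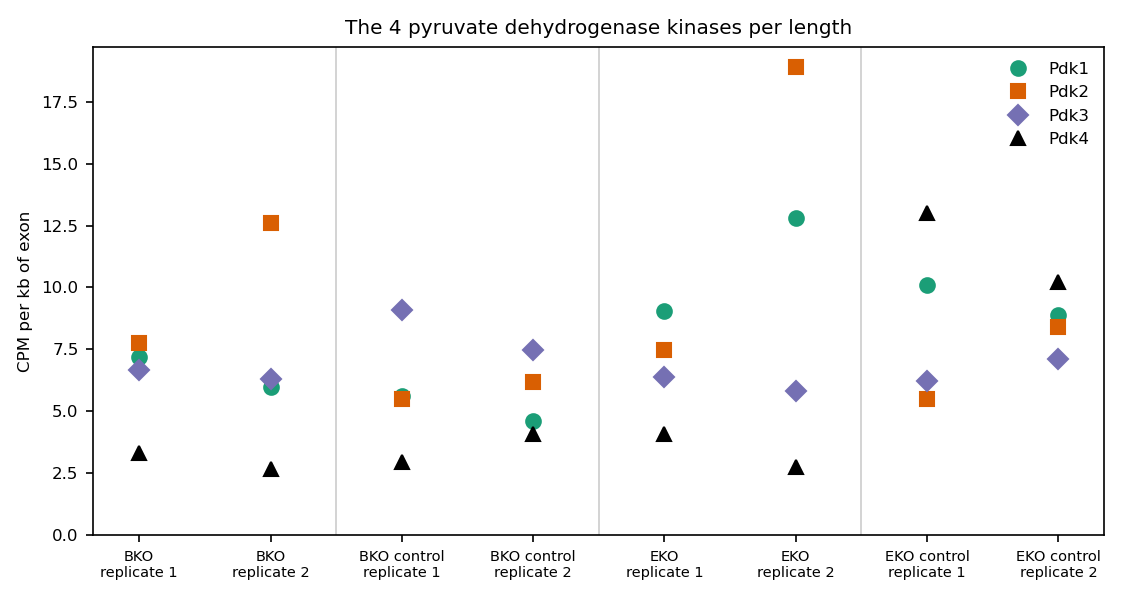
CPM per kb of exon for the 4 kinases in each library, one symbol per kinase, with vertical lines between groups. Pdk4 lies lowest at 2.68 to 4.1 CPM per kb in 6 libraries and highest, at 13.0 and 10.2, in the 2 EKO controls.

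The core subunits varied less than the kinases did. Pdha1 and Pdhb encode the alpha and beta subunits of the decarboxylase, of which alpha carries the serines that the kinases phosphorylate. Pdha1 was at 128 and 143 CPM in EKO, against 122 and 117 CPM in the EKO controls (0.18 ± 0.14), and at 113 and 97.3 CPM in BKO, against 106 and 113 CPM in the BKO controls (-0.06 ± 0.14). Pdhb was at 49.6 and 55.4 CPM in EKO, against 41.6 and 44.1 CPM in the EKO controls (0.29 ± 0.15). In BKO it was at 56.9 and 52.8 CPM, against 50.4 and 58.9 CPM in the BKO controls (0.00 ± 0.15). Both genes were higher in both EKO libraries than in both EKO controls, without passing the test (unadjusted p = 0.263 for Pdha1 and 0.0915 for Pdhb, adjusted p = 1 for each, edgeR). The X-linked Pdha1 overlaps Map3k15 on the opposite strand in GENCODE M21, and whether counting used strand is not given in the sources used here.

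Dlat, the acetyltransferase that carries the lipoyl arms, was at 49.7 and 56.5 CPM in BKO, against 56.9 and 64.3 CPM in the BKO controls (-0.19 ± 0.14). It was at 61.6 and 61.9 CPM in EKO, against 60.1 and 65 CPM in the EKO controls (-0.02 ± 0.14). Dld, the lipoamide dehydrogenase shared with other 2-oxoacid dehydrogenase complexes, was the steadiest of the 10, from 119 to 135 CPM, or 1.13-fold, over the 8 libraries. Its log2 fold change was -0.07 ± 0.13 in BKO and 0.03 ± 0.13 in EKO. The 4 subunits summed to 374 and 379 CPM in EKO, against 350 and 350 CPM in the EKO controls, and to 346 and 326 CPM in BKO, against 342 and 366 CPM in the BKO controls. Per length, Dld (median 49.7 CPM per kb), Pdha1 (40.4) and Pdhb (34.1) stood above Dlat (15.1), and each of the 4 stood above every kinase in these medians.

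The phosphatases had the lowest medians of the 10 per length, 3.11 CPM per kb for Pdp1, the calcium-stimulated enzyme, and 1.51 for Pdp2. The ranges of Pdp1 (2.24 to 4.59 CPM per kb) and Pdk4 (2.68 to 13.0) overlapped, so the order of these genes is not resolved. Pdp1 was at 20.7 and 15.9 CPM in EKO, against 15.6 and 16.5 CPM in the EKO controls, and at 12.4 and 10.1 CPM in BKO, against 11.6 and 12.1 CPM in the BKO controls. Both comparisons overlapped, with log2 fold changes of 0.19 ± 0.23 and -0.08 ± 0.23. As for Pdk1, and with the same limits, all 4 libraries of the EKO model lay above all 4 of the BKO model. Pdp2 was at 5.34 and 11.6 CPM in EKO, against 6.13 and 12.9 CPM in the EKO controls, and at 9.51 and 7.61 CPM in BKO, against 10.3 and 7.66 CPM in the BKO controls. In the EKO model replicate 2 exceeded replicate 1 in both groups by more than the groups differed, and the log2 fold change was -0.17 ± 0.50 in EKO and -0.07 ± 0.50 in BKO.

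Other genes of the pathway gave no call by edgeR's adjusted p in any list. Of the further subunits, Pdhx, which anchors Dld to the core, was at -0.01 ± 0.23 in BKO and 0.28 ± 0.23 in EKO (log2 fold change), and Pdpr, the regulatory subunit of the phosphatase, at -0.15 ± 0.32 and -0.31 ± 0.32. Among 13 genes of pyruvate supply and fates, 0 had an unadjusted p under 0.05 in BKO, against 0.977% of all genes. In EKO 1 had one, Gpt2, against 3.7% of all genes. Gpt2, the mitochondrial alanine transaminase that interconverts pyruvate and alanine, was named for the smallest p of its list in each model. Gpt2 was at 93.5 and 75.3 CPM in EKO, against 42.3 and 57.1 CPM in the EKO controls, and at 49.8 and 55.1 CPM in BKO, against 41.5 and 33.4 CPM in the BKO controls. The groups did not overlap in either model, and 4.47% of all genes were likewise higher in both. The Gpt2 log2 fold changes were 0.76 ± 0.21 in EKO and 0.49 ± 0.21 in BKO (unadjusted p = 0.0102 and 0.0584, adjusted p = 1 for each, edgeR). The list's median was -0.05 in BKO and 0.12 in EKO.

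Lipoate synthesis and the sister complexes (12 genes) and the citric acid cycle (15 genes) each had 0 genes with an unadjusted p under 0.05 in either model, and medians of 0.06 and -0.00 in BKO and 0.15 and 0.05 in EKO. The gene with the smallest p in these lists was Sdhd, a membrane anchor of succinate dehydrogenase, in EKO (0.34 ± 0.16, unadjusted p = 0.0706, edgeR), with 0.29 ± 0.16 in BKO. Dbt, the branched-chain counterpart of Dlat, was at -0.38 ± 0.20 in BKO, and Lipt1, a lipoyltransferase, at -0.73 ± 0.44 in EKO. The 14 transcriptional regulators known to act on Pdk genes had 0 genes with an unadjusted p under 0.05 in either model and medians of -0.08 in BKO and 0.16 in EKO. Foxo1, an activator of Pdk4 in other tissues, was at 109 and 100 CPM in EKO, against 73.7 and 93.2 CPM in the EKO controls (0.32 ± 0.19, unadjusted p = 0.144, edgeR). Ppard, the nuclear receptor PPAR delta, was at 0.41 ± 0.22 in BKO and Hif1a at -0.32 and -0.54 in BKO and EKO.

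Pdk4 is usually induced with genes of fatty acid oxidation by fasting, PPAR and FoxO factors, and 18 of 20 such genes were tested. In BKO 0 of them had an unadjusted p under 0.05. In EKO 5 of 18 had one, against 3.7% of all genes, and 0 an adjusted one, and these did not all go the way of Pdk4. Cpt1a, the gate of fatty acids into mitochondria, was at 85.8 and 102 CPM in EKO, against 66.1 and 54.9 CPM in the EKO controls (0.63 ± 0.16). Acaa2 (1.37 ± 0.45) and Acadm (0.62 ± 0.23), enzymes of beta oxidation, and the mitochondrial carrier Ucp2 (0.46 ± 0.18) were also higher in both EKO libraries than in both EKO controls. Acaa2 rested in part on EKO replicate 2: its log2 fold change was 0.69 without that library and 0.82 with the acinar covariate, and the authors' deposited table gives 0.76 with an adjusted p of 1.

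Lpl, lipoprotein lipase, was the exception, at 140 and 110 CPM in EKO, against 250 and 377 CPM in the EKO controls. Its log2 fold change was -1.33 ± 0.27 in EKO (adjusted p = 0.757 in edgeR, 0.00232 in DESeq2, and 0.00232 to 1 over all alternatives) and -0.40 ± 0.27 in BKO. Over the 18 genes 11 were higher and 7 lower in EKO, with a median log2 fold change of 0.16. Pdk4 and Lpl were therefore lower in EKO than in the EKO controls while Cpt1a, Acaa2, Acadm and Ucp2 were higher, none by edgeR's adjusted p.

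The authors' deposited table for the EKO model lists 243 genes, and Pdk4 is the single gene of the 10 in it, with a log2 fold change of -1.26 ± 0.29 and an adjusted p of 0.0118. The same authors' deposited table gives Lpl at -1.02 ± 0.28 with an adjusted p of 0.0757. The authors' deposited table for the BKO model lists 99 genes, of which 0 are among the 10. The rule by which genes entered these tables is not stated, so absence from them carries no value.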

How the data were processed

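The 8 libraries, made from poly(A) RNA of islets, were grouped by the labels' titles. The authors deposited raw counts, whole reads per gene symbol. Alignment and counting tools in the submitters' processing notes are TopHat and HTSeq, and the build is mm9, with versions and strand setting not given in the sources used here. Reads aligned to several places (31.64% to 39.73% of each library) and HTSeq's other classes without a gene stayed out of library sizes. The authors also deposited log2 fold changes with p-values for selected genes. These are quoted as theirs and entered no test.

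All 8 libraries entered one fit of 4 groups in edgeR 4.0.16 (R 4.3.3), with TMM scaling, filterByExpr (count minimum 10) and the quasi-likelihood F test, leaving 4 residual degrees of freedom. Benjamini-Hochberg adjustment ran over the 15041 genes kept, and the threshold was 0.05. The contrasts were BKO and EKO against their controls, their average and their difference. The SE is the absolute log2 fold change divided by the square root of F. Alternatives were DESeq2 1.42.0 and its size factors, no filter, limma-voom (limma 3.58.1), a fit of each model alone, a block for replicate number, an acinar covariate and each library left out. The fitting code was tested on simulated data with known changes. That simulation had less spread between replicates than these libraries, so it checks the code and not what the tests can find here. Replicates differed beyond sampling noise (chi-square per degree of freedom 68.4 to 224), so none was counted together. Profile likeness used log2 CPM with a prior count of 2.

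All 10 genes were named. So were Pdhx, Pdpr, each pathway list's genes with the smallest p in BKO and in EKO, the 5 genes with a profile most like Pdk4 and, where a result turns on them, the most abundant markers. Cpt1a, Acaa2, Ucp2, Acadm, Hif1a, Sirt6, Irx1, Irx2, Ambp and the genes highest in the EKO controls were named after their values were seen. The 10 genes and the lists were chosen with earlier results of these data known. Sequences and names came from RefSeq tables of GRCm38.p6, in which 9 of 10 genes had a promoter window. Genes whose current symbol is absent from the table were matched by an older one (Mpc1, Mpc2, Pkm).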

Additional observations from a re-analysis of the deposited data

How the results depend on the processing

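Over 58 results and their alternatives 850 values were compared, of which 810 kept direction and side of the threshold, 3 passed it newly under DESeq2 and 37 changed sign. DESeq2 called 9 genes in BKO, 86 in EKO, 98 in the average and 6 in the difference, against edgeR's 0, 1, 1 and 0, and limma-voom called 0, 1, 1 and 0. The fit of the 4 EKO-model libraries called 0 genes in EKO. With single libraries left out, counts ran from 0 to 0 in BKO, 1 to 2 in EKO, 1 to 2 in the average and 0 to 0 in the difference, the 2 in each case without EKO control replicate 1. Pdk4 in EKO was -1.79 under DESeq2 and ran from -2.08 to -1.50 with single libraries left out. The other newly passing values were Lpl in EKO (-1.35) and Pdk4 in the average (-1.02). The cause of the difference between tools was not tested.

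Sign changes concerned values that had not passed the test, and the cause was not tested. Other settings turned Pdk4 in BKO to 0.06, Pdp1 to 0.04, Pdhx to 0.08, Pdhb to -0.04 and Dld in the average to 0.04, all with the acinar covariate, and Pdhb in BKO to -0.0048 with DESeq2 size factors and -0.0047 with DESeq2. All further sign changes came from leaving out single libraries. In BKO the values then ran from -0.46 to 0.01 for Pdk4, -0.17 to 0.04 for Pdha1, -0.10 to 0.12 for Pdhb, -0.23 to 0.06 for Pdp1, -0.26 to 0.16 for Pdp2, -0.07 to 0.05 for Pdhx and -0.34 to 0.07 for Pdpr. In EKO they ran from -0.07 to 0.44 for Pdk1, -0.11 to 0.04 for Dlat, -0.06 to 0.12 for Dld, -0.01 to 0.37 for Pdp1, -0.83 to 0.47 for Pdp2 and -0.63 to 0.03 for Pdpr. In the average they ran from -0.06 to 0.03 for Dld, -0.04 to 0.15 for Pdp1 and -0.45 to 0.20 for Pdp2, and in the difference from -0.44 to 0.07 for Pdk1, -0.70 to 0.64 for Pdk2 and -0.76 to 0.53 for Pdp2.

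Same-numbered libraries of a model deviated from their group means with a correlation of 0.31 in BKO and 0.49 in EKO over all genes, and of -0.17 and 0.75 over genes with a mean log2 CPM above 5, and the labels do not say that the numbers pair them. With the replicate block, calls were 0 in BKO, 1 in EKO, 1 in the average and 0 in the difference, genes with an unadjusted p under 0.05 numbered 405, 1023, 1186 and 289, and Pdk4 in EKO was at -1.78 (edgeR, adjusted p = 0.356). With numbers crossed in the BKO model, an alternative chosen after seeing the data, calls were 0, 1, 1 and 0. The lowest count of the 10 genes in a library was 122 reads, and the 2 libraries per group limit precision more than counting does.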
